A study of Tachysurus vachellii with 6 samples.

Results

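The miR-135 family was followed in extracellular vesicles from the liver of the darkbarbel catfish, Tachysurus vachellii. Its members were the rows of the liver miRNA table whose name, after the species prefix, is miR-135 with any letter, arm or variant suffix. There were 4 such rows, which held 3 distinct sequences, each of them 1 of the 841 entries formed from the table. An entry is 1 sequence with its listings summed, and in 18 cases it joins sequences of 1 precursor with identical values. All 3 miR-135 entries passed the filter on low counts, as did 519 entries in all. The rule itself goes by name, but the family was chosen by its values in the hypoxia and normoxia libraries, so its values in that contrast are given as a description. Calls of the test run across all entries are given only as counts beside those of the whole table, and nothing rests on them.

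In 3 libraries the fish had been kept for 4 h in hypoxia, in sealed water bubbled with nitrogen to a dissolved oxygen of 1.0 mg/L. The other 3 libraries were labelled normoxia at 4 h, at 6.8 mg/L. Fish of both groups were acclimated and fasted before the experiment, and no genotype, sex or age is given. Vesicles were isolated from liver tissue per the labels' protocols, although the titles of the samples mention liver alone. Whether each library stands for its own fish, or for several, is not stated, so the spread between libraries may be technical.

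A microRNA is a short RNA that lowers the output of messenger RNAs which pair with its seed, the bases near its 5′ end, and its hairpin precursor can give a 5p and a 3p strand. miR-135 is a conserved vertebrate family whose 5p strand is the main product. In human cells it is known to target APC, a brake on Wnt signalling, and miR-135b carried by vesicles of hypoxic human myeloma cells is known to target, in endothelial cells, FIH, an oxygen-dependent inhibitor of the hypoxia-inducible factor HIF.

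The 3 sequences are shown because they divide the family into a shared 5p seed and a separate 3p strand. They are DNA letters as deposited, 5′ to 3′, with the seed (bases 2 to 8) in capitals.
dre-miR-135c_R+1: tATGGCTTtctattcctatgtga
oni-miR-135a_R+1 and dre-miR-135b-5p_R+1: tATGGCTTtttattcctatctga
gmo-miR-135b-3p_L-1R-1: tATAGGGAtggaagccatgc
The first is called miR-135c below, the second miR-135a/b-5p and the third miR-135b-3p. The prefix is that of the species whose miRNA was matched, and what the suffixes mean is not stated in the labels or the file.

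miR-135c and miR-135a/b-5p share the seed ATGGCTT and are the same at 21 of 23 positions. Counted from 1 at the 5′ end, with the miR-135c base first, they differ by C10T and G20C, both outside the seed. The seed of miR-135b-3p is ATAGGGA. None of the 871 other sequences in the table had either seed at bases 2 to 8. The nearest sequence outside the family lay 7 edits from miR-135c, 9 from miR-135a/b-5p and 7 from miR-135b-3p, so the closest neighbour of each 5p entry in the table is the other 5p entry. The rule by which the authors divided reads between such close sequences is not known, which leaves the split between the 5p entries uncertain. miR-135a/b-5p was listed under 2 names with the same value each time. Its listed values were not all whole, and their sums were whole in every library. The listings were summed, and gene copies that give this sequence cannot be told from one another.

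The 3p strand carries the name of miR-135b, and its predicted pairing with each 5p sequence was computed. With miR-135c it formed 19 base pairs at -24.3 kcal/mol, and with miR-135a/b-5p 18 base pairs at -20.5 kcal/mol. The base at position 20 was paired in the first duplex and unpaired in the second. From which hairpin the 3p reads came was not tested.

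The libraries held 2038299, 7234219 and 6039285 counts in hypoxia replicates 1, 2 and 3, and 5572734 to 8497215 counts in normoxia. Hypoxia replicate 1 was the shallowest and had 462 entries detected, against 643 to 725 in the other 5 libraries. The hepatocyte miRNA miR-122 (tni-miR-122_R-1) was the most abundant entry of all, with means of 228943 ± 20041 CPM for hypoxia and 246967 ± 6027 CPM for normoxia (SD, n = 3 each). CPM are counts per 1000000 of the TMM-scaled library total, TMM being a scaling that sets most entries level between libraries. Levels of entries are compared as CPM without a correction for length, since a read covers a whole miRNA and the tested entries are 18 to 25 nt long. miR-210 (dre-miR-210-3p_R-2), the best known hypoxia-induced miRNA, rose by 1.25 ± 0.17 on the log2 scale (SE), and passed the test described below in 14 of 18 alternatives.

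miR-135 was a minor family in these vesicles. It took 0.0120%, 0.0175% and 0.0133% of counts in hypoxia replicates 1, 2 and 3, and 0.0194%, 0.0185% and 0.0232% in normoxia replicates 1, 2 and 3. miR-135c led, at rank 152 of 519 by mean CPM, miR-135a/b-5p followed at rank 279, and miR-135b-3p stood at rank 450. That order held in each of the 6 libraries, and the 95% counting intervals of the 3 entries did not meet in any of them.

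Summed over its entries, the family measured 119, 175 and 129 CPM in hypoxia replicates 1, 2 and 3, and 196, 189 and 235 CPM in normoxia replicates 1, 2 and 3. On this scale all 3 hypoxia libraries lay below all 3 normoxia libraries, and hypoxia replicate 2 came nearest to normoxia. The means were 141 ± 29.9 CPM for hypoxia and 207 ± 24.9 CPM for normoxia (SD, n = 3 each), a log2 ratio of -0.55. Without hypoxia replicate 1 the log2 ratio was -0.40 and without hypoxia replicate 2 it was -0.73. With the libraries' trends on GC content and length removed, an alternative chosen after seeing the data and described below, it was -0.31 and the groups overlapped. In such bulk samples, fewer vesicles of a cell type and less of the miRNA per vesicle cannot be told apart.

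miR-135c, the main 5p strand, had 229, 1106 and 737 counts in hypoxia replicates 1, 2 and 3, and 1366, 946 and 1121 counts in normoxia replicates 1, 2 and 3. Scaled to the library, these were 111, 153 and 118 CPM in hypoxia, and 162, 162 and 204 CPM in normoxia. The groups did not overlap, but hypoxia replicate 2, with a 95% counting interval of 144 to 162 CPM, met the intervals of normoxia replicates 1 (154 to 171 CPM) and 2 (151 to 172 CPM). The means were 127 ± 22.4 CPM for hypoxia and 176 ± 24.1 CPM for normoxia (SD, n = 3 each), and the log2 fold change was -0.46 ± 0.18 (SE).

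miR-135a/b-5p, with the same seed, had 16, 131 and 62 counts in hypoxia replicates 1, 2 and 3, and 243, 158 and 140 counts in normoxia replicates 1, 2 and 3. Scaled to the library, these were 7.78, 18.1 and 9.89 CPM in hypoxia, and 28.9, 27.0 and 25.4 CPM in normoxia. The groups did not overlap. The normoxia libraries lay close together, while hypoxia replicate 2 stood well above hypoxia replicates 1 and 3. Its counting interval (15.1 to 21.5 CPM) met that of normoxia replicate 3 (21.4 to 30.0 CPM). It lay below the intervals of normoxia replicates 1 (25.4 to 32.8 CPM) and 2 (22.9 to 31.5 CPM). The means were 11.9 ± 5.46 CPM for hypoxia and 27.1 ± 1.73 CPM for normoxia (SD, n = 3 each), and the log2 fold change was -1.13 ± 0.29 (SE).

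miR-135b-3p, the opposite strand, had 0, 29 and 7 counts in hypoxia replicates 1, 2 and 3, and 40, 5 and 34 counts in normoxia replicates 1, 2 and 3. Scaled to the library, these were 0, 4.01 and 1.12 CPM in hypoxia, and 4.76, 0.854 and 6.18 CPM in normoxia. The groups overlapped, since normoxia replicate 2 was lower than hypoxia replicates 2 and 3. In hypoxia replicate 1 a count of 0 allows a level of up to 1.47 CPM, taken as 3 counts of the unscaled library total, while the two-sided 95% counting interval on the scaled total reaches 1.79 CPM. At the depth of that library the shares of the others would have given 8.17 and 2.36 counts from hypoxia replicates 2 and 3, and 9.60, 1.70 and 12.4 counts from normoxia replicates 1, 2 and 3. In normoxia the counting interval of replicate 2 (0.277 to 1.99 CPM) lay below those of replicates 1 (3.40 to 6.48 CPM) and 3 (4.28 to 8.64 CPM), a spread beyond counting error. The log2 fold change was -0.96 ± 0.88 (SE), and a difference in this strand was not detectable with these libraries. Single libraries decided this value: leaving out hypoxia replicate 2 gave -2.34, leaving out hypoxia replicate 1 gave -0.57, and leaving out normoxia replicates 2 and 3 in turn gave -1.48 and -0.53.

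**Figure D1:**
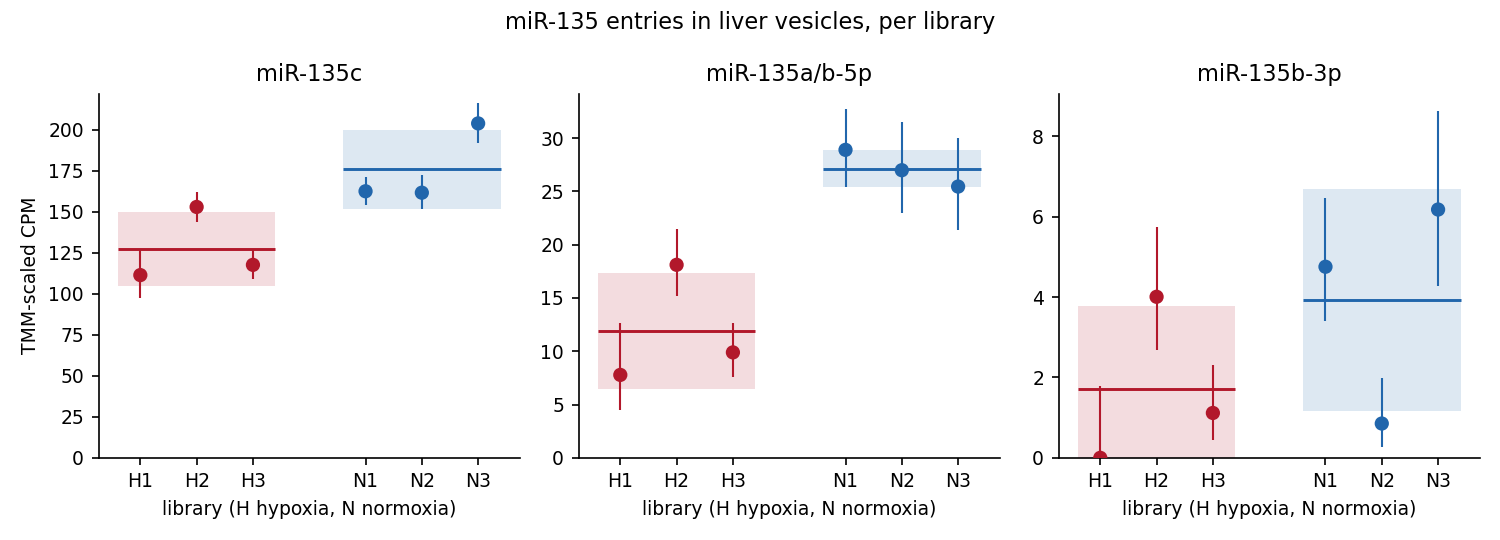
TMM-scaled CPM of the 3 miR-135 entries (vertical axes, linear from 0) in each library (horizontal axes, H hypoxia and N normoxia replicates 1 to 3). Points carry 95% counting intervals, and lines with shaded bands are group means ± SD (n = 3, bands stopped at 0). The hypoxia points of miR-135c (111 to 153 CPM) and of miR-135a/b-5p (7.78 to 18.1 CPM) lie below the normoxia points (162 to 204 CPM and 25.4 to 28.9 CPM), and those of miR-135b-3p overlap.

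No miR-135 entry passed the threshold of 0.05 on the adjusted p across all entries (edgeR quasi-likelihood test, Benjamini-Hochberg), 0 of 3, where 14 of 519 entries (2.70%) passed, 8 higher and 6 lower in hypoxia. That split was 5 higher and 0 lower with total counts only, and 10 higher and 3 lower with upper-quartile scaling. Both 5p entries had an unadjusted edgeR p under 0.05, 2 of 3, as did 96 of 519 entries (18.5%). DESeq2 called 1 of the 3, miR-135a/b-5p, where it called 51 of 458 entries with an adjusted p (11.1%). limma-voom called the same 1 of the 3 and 22 of 519 entries (4.24%). Without a filter on low counts edgeR called it too, 1 of 3, beside 59 of 841 entries (7.02%), and likewise without hypoxia replicate 2, beside 52 of 540 entries (9.63%). The 2 entries whose groups did not overlap, both lower in hypoxia, compare with 74 of 519 entries (14.3%). A log2 fold change below 0, found in all 3, was found in 55.3% of the entries tested, whose median was -0.04. Since the family was chosen with this contrast in view, these counts are not evidence about it.

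The make-up of the family's counts was compared next, a quantity that no library scaling enters. miR-135a/b-5p held 6.53%, 10.3% and 7.69% of miR-135 counts in hypoxia replicates 1, 2 and 3, and 14.7%, 14.2% and 10.8% in normoxia replicates 1, 2 and 3. The groups did not overlap, but hypoxia replicate 2 (exact 95% binomial interval 8.72% to 12.2%) and normoxia replicate 3 (9.17% to 12.6%) could not be told apart. miR-135c held 93.5%, 87.4% and 91.4% in hypoxia replicates 1, 2 and 3, and 82.8%, 85.3% and 86.6% in normoxia replicates 1, 2 and 3. Its share averaged 90.8 ± 3.11% in hypoxia and 84.9 ± 1.89% in normoxia (SD, n = 3 each), a difference of 5.86 percentage points. The exact 95% binomial interval of its share in hypoxia replicate 2 was 85.4% to 89.1%. That interval met those of normoxia replicates 2 (83.1% to 87.3%) and 3 (84.6% to 88.4%). In other terms there were 14.3, 8.44 and 11.9 counts of miR-135c for each of miR-135a/b-5p in hypoxia replicates 1, 2 and 3, and 5.62, 5.99 and 8.01 in normoxia replicates 1, 2 and 3.

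The 3p strand held 0%, 2.29% and 0.868% of miR-135 counts in hypoxia replicates 1, 2 and 3, and 2.43%, 0.451% and 2.63% in normoxia replicates 1, 2 and 3. In hypoxia replicate 1 a count of 0 of 245 allows a share of up to 1.22%, taken as 3 counts, while the exact two-sided 95% binomial interval reaches 1.49%. The 5p strands thus held nearly all of the family's counts in every library, and the share of the 3p strand varied more within each group than between the group means, which were 1.05 ± 1.16% in hypoxia and 1.83 ± 1.20% in normoxia (SD, n = 3 each).

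**Figure D2:**
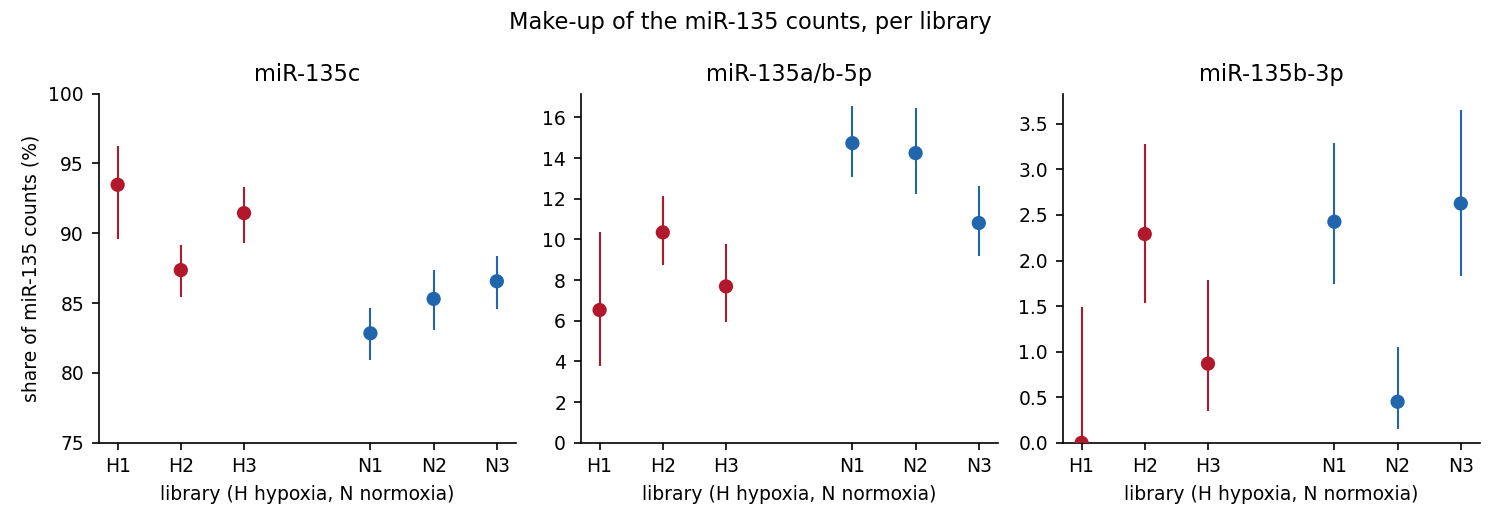
Share of all miR-135 counts held by each entry (vertical axes, %, the first running from 75 to 100%) in each library (H hypoxia, N normoxia), with exact 95% binomial intervals. The share of miR-135a/b-5p was 6.53 to 10.3% in hypoxia and 10.8 to 14.7% in normoxia, and the interval of hypoxia replicate 2 meets that of normoxia replicate 3.

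Both 5p sequences are poor in G and C. miR-135c has a GC content of 34.8% and miR-135a/b-5p one of 30.4%, and 8.67% and 2.31% of the tested entries had a lower one, while miR-135b-3p has 50.0%. The libraries differed in how log2 CPM went with GC content and with length. For each 10 points of GC, log2 CPM changed by 0.11, -0.06 and 0.11 in hypoxia replicates 1, 2 and 3, and by -0.01, -0.08 and -0.07 in normoxia replicates 1, 2 and 3. Per nt of length, log2 CPM changed by -0.005, -0.07 and -0.03 in hypoxia replicates 1, 2 and 3. In normoxia replicates 1, 2 and 3 the change per nt was 0.08, 0.04 and -0.02. From the trends on GC content and length together, the log2 CPM of miR-135c would lie at -0.22, 0.01 and -0.17 from its mean in hypoxia replicates 1, 2 and 3, and at 0.13, 0.17 and 0.09 in normoxia replicates 1, 2 and 3.

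With these trends removed, miR-135c measured 130.1, 152 and 132 CPM in hypoxia replicates 1, 2 and 3, and 148, 144 and 192 CPM in normoxia replicates 1, 2 and 3. Hypoxia replicate 2 then lay above normoxia replicates 1 and 2, so that the groups overlapped, and the log2 fold change fitted with offsets for the trends was -0.22 ± 0.16 (SE). miR-135a/b-5p measured 9.39, 17.7 and 11.5 CPM in hypoxia replicates 1, 2 and 3, and 26.3, 23.5 and 23.5 CPM in normoxia replicates 1, 2 and 3. Its groups stayed apart, but the share of all tested entries lower in hypoxia without overlap was not computed on this adjusted scale. By the adjusted p, edgeR with the offsets called 0 of 3 miR-135 entries, beside 3 of 519 entries. The log2 fold change of miR-135a/b-5p with the offsets was -0.87 ± 0.24 (SE). For miR-135b-3p the value with the offsets was -1.08 ± 0.86 (SE). Summed over the adjusted entries, the family measured 139, 173 and 145 CPM in hypoxia replicates 1, 2 and 3, and 179, 168 and 221 CPM in normoxia replicates 1, 2 and 3. Hypoxia replicate 2 then lay above normoxia replicate 2, and the log2 ratio was -0.31.

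**Figure D3:**
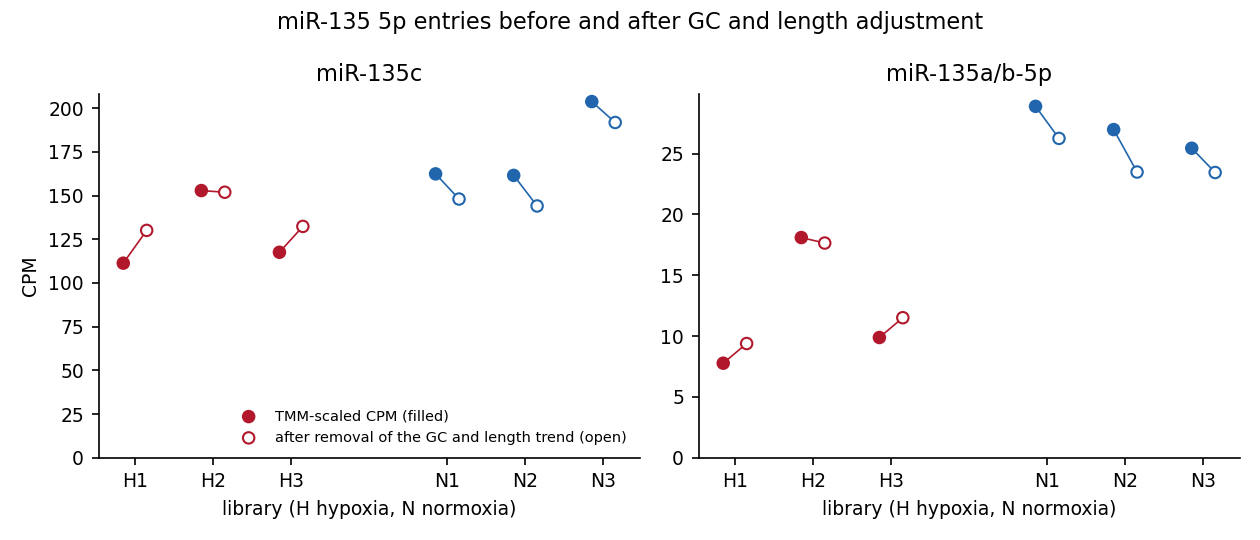
CPM of the 5p entries (vertical axes, linear from 0) in each library (H hypoxia, N normoxia) as TMM-scaled values (filled) and after removal of each library's trend on GC content and length (open). For miR-135c the adjusted values of hypoxia replicate 2 (152 CPM) and normoxia replicates 1 and 2 (148 and 144 CPM) overlap, and for miR-135a/b-5p the hypoxia values (9.39 to 17.7 CPM) stay below the normoxia values (23.5 to 26.3 CPM).

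**Figure D4:**
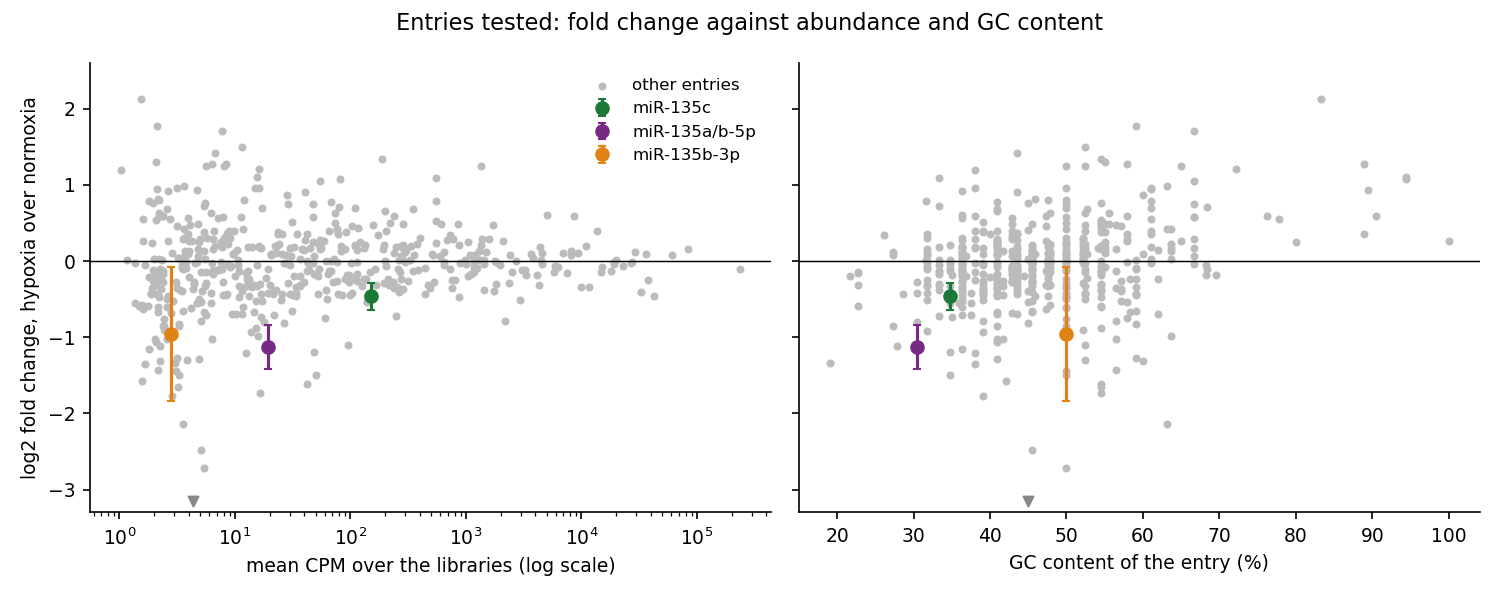
Log2 fold change of hypoxia over normoxia (vertical axis) of the 519 tested entries against their mean CPM (left, log axis) and GC content in % (right), with SE bars on the miR-135 entries. The triangle at the lower edge is 1 entry below the axis, and the miR-135 entries lie at -0.46, -1.13 and -0.96.

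The direction of each entry was followed through the other ways of processing. The log2 fold change stayed below 0 for both 5p entries in all 18 alternatives, at -0.60 to -0.21 for miR-135c and at -1.56 to -0.87 for miR-135a/b-5p. miR-135b-3p, left out by a minimum mean of 10 CPM, lay at -2.34 to -0.53 in the other 17, both ends being fits with a single library left out. As the groups of both 5p entries did not overlap, leaving out 1 library could hardly turn their sign, so this says little about stability.

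**Figure D5:**
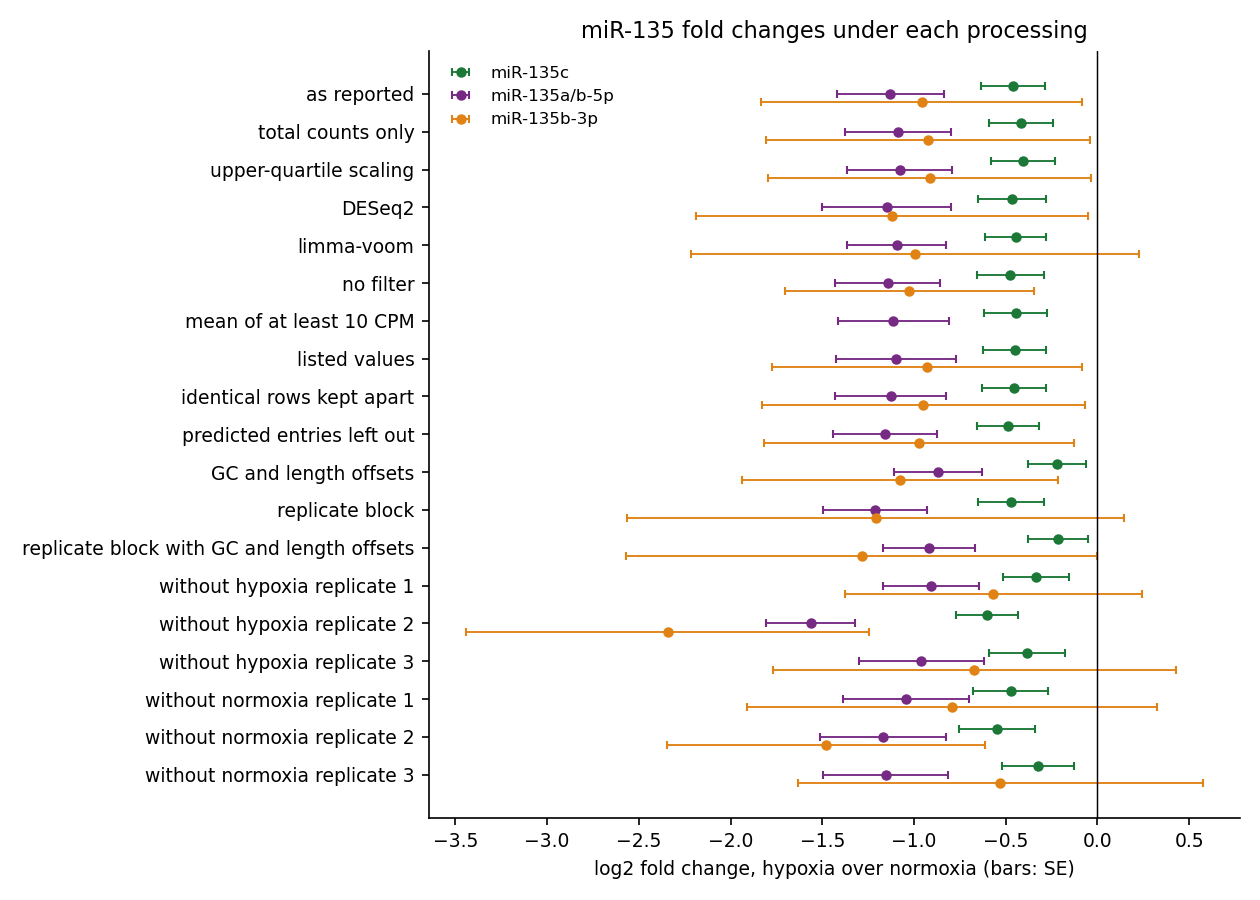
Log2 fold change of hypoxia over normoxia (horizontal axis, bars are SE) of the 3 miR-135 entries as reported and under each of 18 alternatives (rows). miR-135a/b-5p lies at -1.56 to -0.87 throughout, and miR-135c comes nearest to 0 with GC and length offsets, at -0.22 and -0.21.

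The 5 entries whose profile was most like that of the family sum were found among the 516 tested entries outside it. Likeness was the root-mean-square difference in log2 CPM over the 6 libraries, each profile centred on its own mean. The nearest was ssa-miR-146b-3p_R-1_2ss14AG20CT at 0.10, then dre-mir-146b-p3 at 0.10, dre-mir-148-p5_1ss21CT at 0.11, oni-miR-199a_R+2 at 0.13 and dre-miR-217_R+1 at 0.14, where the median of all entries was 0.45. These profiles come from the same libraries and so share their depth. The GC content of the 5 ran from 33.3% to 45.5%, and how far the libraries' GC trends entered their profiles was not tested. ssa-miR-146b-3p_R-1_2ss14AG20CT measured 164, 217 and 178 CPM in hypoxia replicates 1, 2 and 3, and 299.7, 278 and 344 CPM in normoxia replicates 1, 2 and 3. Like the miR-135 sum it was higher in hypoxia replicate 2 than in the other hypoxia libraries and highest in normoxia replicate 3. As it was picked for likeness over these same libraries, that resemblance follows from the choice and is no separate result.

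miR-135 is known from nervous and epithelial tissue in mammals, and lists of miRNAs of the cell types that a liver sample could hold were set beside it. They are described by counts (edgeR quasi-likelihood, Benjamini-Hochberg adjusted p under 0.05) and medians, beside 8 higher, 6 lower and a median log2 fold change of -0.04 over all 519 entries. Of 19 tested neural entries 0 passed and 0 had an unadjusted p under 0.05, with a median of -0.07. Their summed level was 5839 to 6322 CPM in hypoxia and 5748 to 6785 CPM in normoxia, almost all of it gmo-miR-128-3p, and of the 11 neural families miR-219 had no entry. The log2 fold change was below 0 in 11 of the 19, beside 55.3% of all tested entries. For gmo-miR-128-3p it was -0.07 ± 0.11 (SE). dre-miR-124-3p_R-2_1ss20CT, of a family enriched in neurons, lay on the other side from most of the list, at 0.38 ± 0.19 (SE).

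Of 14 tested epithelial entries 0 passed, and the median was -0.15. An unadjusted edgeR p under 0.05 was found in 2 of the 14, beside 96 of 519 entries (18.5%). The log2 fold change was below 0 in 10 of the 14, beside 55.3% of all tested entries, and above 0 in the rest. Their summed level was 2554 to 2968 CPM in hypoxia and 3031 to 3384 CPM in normoxia, without overlap and on the same side as miR-135. Among all 519 tested entries taken singly, 74 (14.3%) also lay lower in hypoxia without overlap. No such share was computed for sums of entries. Of the 8 families miR-141 had no entry. The sum was led by dre-miR-200a-3p_R+1 and dre-miR-200b-3p, at -0.30 ± 0.13 and -0.27 ± 0.14 on the log2 fold change scale (SE). The part of epithelial vesicles in the miR-135 values was not tested.

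Of 7 tested erythrocyte entries 2 passed, both higher in hypoxia, and the list's median was 0.35. An unadjusted edgeR p under 0.05 was found in 3 of the 7, beside 18.5% of all tested entries. The list did not move as one. The log2 fold change was below 0 in 2 of the 7, beside 55.3% of all tested entries. Among the 2 was bta-miR-486 at -0.98 ± 0.34 (SE). The list's summed level was 7203 to 9173 CPM in hypoxia and 4842 to 5917 CPM in normoxia, on the other side from miR-135. Each of its 3 families had an entry. Its leading members were dre-miR-451 and oni-miR-144a_L-1R+1_1ss11TA. dre-miR-451 rose by 0.60 ± 0.13 on the log2 scale (SE) and passed in 11 of 18 alternatives, and oni-miR-144a_L-1R+1_1ss11TA lay at 0.35 ± 0.20. A less abundant miR-144 entry, gmo-miR-144-3p, rose by 1.09 ± 0.23 (SE) and was the other entry of the list that passed. Of 11 tested hepatocyte entries 0 passed and 1 had an unadjusted p under 0.05. Their median was -0.11, and the log2 fold change was below 0 in 9 of the 11, beside 55.3% of all tested entries. Their summed level was 238950 to 288058 CPM in hypoxia and 278886 to 290075 CPM in normoxia. ssa-miR-192a-5p was second to miR-122, at a log2 fold change of -0.06 ± 0.15. Of 6 tested entries of skeletal and cardiac muscle 0 passed and 0 had an unadjusted p under 0.05. Their median was 0.17, and the log2 fold change was below 0 in 1 of the 6, beside 55.3% of all tested entries. Their summed level was 731 to 975 CPM in hypoxia and 767 to 806 CPM in normoxia. It was led by oni-miR-1, with a log2 fold change of 0.12 ± 0.16, and then dre-miR-133a-3p_L-1R+1, at 0.44 ± 0.24. The part of these cell types in the miR-135 values was not tested.

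Among miRNAs linked to hypoxia in the literature on other species, miR-135 excluded and miR-429 shared with the epithelial list, 56 entries were tested. Of these 2 rose, the miR-210 entry named above and dre-miR-210-5p_1ss20TC, the latter by 1.34 ± 0.14 on the log2 scale (SE). Another 2 fell, miR-26a-5p and gmo-miR-26b-5p_R+1_1ss22TA, the latter at -1.19 ± 0.26 (SE). The calls in this list thus came from the miR-210 and miR-26 families alone. Over all 519 entries 8 rose and 6 fell. In the list 10 of 56 had an unadjusted edgeR p under 0.05, beside 96 of 519 (18.5%). The log2 fold change was below 0 in 33 of the 56, beside 55.3% of all tested entries. The median log2 fold change was -0.05, and of the 13 families miR-373 had no entry. The most abundant were miR-26a-5p (gmo-miR-26a-5p), which fell by 0.45 ± 0.10 on the log2 scale (SE) but passed in 7 of 18 alternatives only and not with GC and length offsets, and miR-199a-5p (hsa-miR-199a-5p), at 0.10 ± 0.12. The summed level of the 56 entries was 157452 to 161239 CPM in hypoxia and 171964 to 178576 CPM in normoxia. Like the epithelial sum, it did not overlap and lay on the same side as miR-135. The sum leans on its most abundant members and need not describe the list as a whole, whose median was -0.05. From normoxia to hypoxia the mean of miR-26a-5p alone went from 49436 to 36102 CPM. That of miR-199a-5p went the other way, from 35164 to 37577 CPM. The sum without miR-26a-5p was not computed, nor was a share of sums without overlap.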

How the data were processed

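The authors deposited 1 table of estimated counts, unscaled by its header, with a name and a sequence in each of 1088 rows. Per the labels' protocols, small RNA was ligated to adapters, reverse transcribed, amplified and sequenced, and reads were cut to a single end. Neither an aligner nor a caller, build or filter is named in the labels or the file header. Molecular identifiers are not mentioned, so counting intervals and floors cover counting error only.

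Listings of 1 sequence were summed, and rows of 1 precursor with identical values were joined in 18 cases. This gave 841 entries, 306 of them with predicted names. Estimated counts were rounded, passed through filterByExpr, given TMM factors and fitted with edgeR 4.0.16 (glmQLFit and glmQLFTest, hypoxia against normoxia, no block) over 519 entries, with Benjamini-Hochberg adjustment over all of them and a threshold of 0.05. Standard errors were taken as |log2 fold change| over the square root of the F statistic. The fit was tested on simulated counts. DESeq2 1.42.0, limma-voom 3.58.1, other scalings and filters, a replicate block, GC and length offsets and leaving out each library were alternatives. Duplexes were predicted with RNAduplex 2.7.2.

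The family, the lists of miRNAs and the rule for named entries were chosen with earlier results of these data known. The rule took every miR-135 entry, the 5 entries most like the family sum, the most abundant miR-122 and miR-210 entries, and the 2 most abundant entries of each list. Outside the rule, bta-miR-486 was named because it lay on the other side from most of its list.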

Additional observations from a re-analysis of the deposited data

How the results depend on the processing

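The number of entries called over the whole table depended on the processing. Against 14 entries as reported, edgeR called 5 with total counts only, 59 without a filter, 3 with identical rows kept apart and 3 with GC and length offsets, while DESeq2 called 51 and limma-voom 22. edgeR called 13 with upper-quartile scaling, 15 with a minimum mean of 10 CPM, 12 with listed values and 10 with predicted entries left out, all within 1.5 times the reported count. With 1 library left out at a time edgeR called 1, 52 and 2 entries without hypoxia replicates 1, 2 and 3, and 1, 0 and 5 without normoxia replicates 1, 2 and 3. Without normoxia replicate 2 there were 73 entries with an unadjusted edgeR p under 0.05, and no other tool was run on those 5 libraries. With the replicate number as a block edgeR called 7 entries, and 4 with the replicate block and GC and length offsets together. Same-numbered libraries gave no sign of being paired. Their deviations from the group means correlated at -0.13, -0.06 and -0.05 across entries, and 0 of 3 hypoxia libraries correlated best with its own number. With 3 libraries per group this cannot settle whether the numbers pair them. The causes were not tested.

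For the family sum 10 alternatives of scaling, listings and libraries gave log2 ratios that differed from -0.55 by less than the spread between replicates (pooled SD 0.24), at -0.73 to -0.40 with 1 library left out. With GC and length trends removed, chosen after seeing the data, it was -0.31, a shift of 0.24 that slightly exceeds that spread. The share of miR-135c moved by less than its spread in 9 alternatives, at 4.50 to 7.55 percentage points with 1 library left out, 3.69 with listed values and 5.86 with the trends removed. Among single entries, miR-135c moved by more than its spread with GC and length offsets, at -0.22, and with these and the replicate block, at -0.21. miR-135b-3p rested on the fewest counts of the family, 36 in all of hypoxia and 79 in normoxia.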
